A study of Mus musculus with 2 samples.

Results

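The genes described here encode the hydrolases of the lysosome and the proteins of its membrane, with a few that deliver or regulate them. They are a set of 42 gene symbols, found by name in the files, and the set was drawn up with earlier results of these data known. Of the 42 symbols, 41 were found in both deposited files, out of 22886 genes in all. The symbol not found is Glb1, the gene of lysosomal beta-galactosidase. Its RefSeq accession lies in a locus of 2 accessions that the files list as Tmppe, with 37.3 RPKM in the vehicle library and 39.6 in the clodronate library, and this locus was not counted.

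The study holds 2 RNA sequencing libraries of polyA RNA, 1 for each condition. Both come from wild type C57BL/6 mice that carried subcutaneous LLC tumors (Lewis lung carcinoma, a transplanted mouse tumor line), and in both the cells described as aerobic were collected by FACS. The mice of the first library were injected with vehicle and those of the second with clodronate (Clod), a drug that is usually given in liposomes to deplete phagocytes. The labels give no dose, time, age or number of pooled mice, and their growth protocol names EML cells, a blood progenitor line, which conflicts with the tumor label. Values are RPKM (read numbers relative to transcript length and library size), so levels can be set side by side between genes. With 1 library per condition the differences below lack a replicate check and carry no p-value, and the injection cannot be told apart from other ways in which the mice, the sorting or the library preparation differed.

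Lysosomes are acidic organelles that break down what a cell takes up and what it recycles of its own. Soluble hydrolases are tagged with mannose 6-phosphate in the Golgi, carried to the lysosome by receptors and activated by the acidity that the proton pump (V-ATPase) maintains. Heavily glycosylated membrane proteins line the organelle and transporters export the products. Macrophages are rich in lysosomes because they digest the cells, debris and particles that they engulf. The transcription factor TFEB binds a palindrome around the letters CACGTG, the CLEAR element, in the promoters of many lysosomal genes.

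Both libraries carried the markers of macrophages. All 14 macrophage markers of the list were found, at 22.5 RPKM or more in each library, and they summed to 27041 RPKM for vehicle and 24979 for clodronate. Lyz2 (lysozyme) stood at 10534 and 11189 RPKM and Csf1r, the receptor of macrophage colony-stimulating factor, at 446 and 465. By sign 7 of the 14 were higher and 7 lower in the clodronate library. On the scale used below, 2 were at least 1.5-fold higher and 1 lower, against 16.6% and 16.3% of genes averaging 1 RPKM or more. These were Fcgr1 (22.5 and 42.3 RPKM), Mrc1 (174 and 289) and, lower, C1qc (3984 and 2043). Epithelial markers were low, and the 6 genes summed to 15.0 and 11.0 RPKM. Of these, Epcam and Krt19 stood at 0 RPKM in each library, and Cdh1 was the highest at 6.14 and 6.44 RPKM. No marker chosen for LLC cells was in the lists, so whether tumor cells were present was not tested. Fibroblast markers summed to 158 RPKM for vehicle and 76.5 for clodronate, neutrophil markers to 43.1 and 45.1, T and NK cell markers to 1.15 and 2.63, B cell markers to 1.10 and 1.20 and endothelial markers to 3.34 and 7.84. The part of the other cell types in the lysosomal values was not tested, and in these bulk samples fewer cells of a type and less RNA per cell cannot be told apart.

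Promoters are shown first for 5 genes, because they hold CACGTG and because the 5 genes span the directions seen between the libraries. Gla and Gaa were at least 1.5-fold higher in the clodronate library, Lamp1 was nearly equal, and Cln3 and Mcoln1 were lower. Each sequence is the RefSeq promoter window of build GRCm38.p6, from 250 bases before the start site to 50 bases after it, written 5′ to 3′ on the strand of the gene. Capitals mark CACGTG.
Lamp1 (chr8:13158911-13159210, plus strand): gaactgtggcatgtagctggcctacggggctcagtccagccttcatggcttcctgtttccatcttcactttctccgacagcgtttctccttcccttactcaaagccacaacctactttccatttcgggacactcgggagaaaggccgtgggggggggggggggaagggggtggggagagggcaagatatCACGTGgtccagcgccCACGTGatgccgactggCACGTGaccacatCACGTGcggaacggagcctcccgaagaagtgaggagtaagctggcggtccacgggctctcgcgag
Gla (chrX:134600956-134601255, minus strand): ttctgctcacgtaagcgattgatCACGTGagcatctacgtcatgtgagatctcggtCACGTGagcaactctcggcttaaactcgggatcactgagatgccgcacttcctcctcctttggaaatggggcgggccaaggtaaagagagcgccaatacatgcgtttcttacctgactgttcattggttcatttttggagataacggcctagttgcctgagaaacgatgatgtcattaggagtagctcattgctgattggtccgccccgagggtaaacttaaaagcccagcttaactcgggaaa
Gaa (chr11:119267713-119268012, plus strand): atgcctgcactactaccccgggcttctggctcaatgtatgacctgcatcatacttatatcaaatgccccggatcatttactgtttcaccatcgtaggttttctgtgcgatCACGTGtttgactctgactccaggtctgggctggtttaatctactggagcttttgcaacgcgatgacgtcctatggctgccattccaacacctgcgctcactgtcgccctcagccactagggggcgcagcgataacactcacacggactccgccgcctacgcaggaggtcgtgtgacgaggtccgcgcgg
Mcoln1 (chr8:3500269-3500568, plus strand): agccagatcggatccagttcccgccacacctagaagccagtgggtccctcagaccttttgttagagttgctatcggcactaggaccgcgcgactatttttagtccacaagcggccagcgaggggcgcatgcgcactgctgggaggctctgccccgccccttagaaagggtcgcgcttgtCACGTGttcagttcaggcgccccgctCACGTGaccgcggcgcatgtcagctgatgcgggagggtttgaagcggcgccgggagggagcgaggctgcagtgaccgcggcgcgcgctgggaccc
Cln3 (chr7:126583187-126583486, minus strand): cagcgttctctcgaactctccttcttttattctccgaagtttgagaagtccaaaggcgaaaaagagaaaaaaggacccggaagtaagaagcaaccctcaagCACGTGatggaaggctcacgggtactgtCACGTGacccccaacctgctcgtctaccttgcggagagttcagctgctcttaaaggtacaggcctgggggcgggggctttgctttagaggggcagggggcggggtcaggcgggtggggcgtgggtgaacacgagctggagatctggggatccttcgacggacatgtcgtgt

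Lamp1 held 4 copies of CACGTG, which began 61, 45, 28 and 15 bases before its start site. Gla held 2 copies, 227 and 194 bases before the start, and both lay in the longer palindrome TCACGTGA. Mcoln1 held 2 copies at 71 and 45 bases, of which the copy at 45 lay in TCACGTGA. Gaa held 1 copy, 140 bases before the start. The Cln3 window, at 1 of the start sites listed for the gene, had copies at 149 and 121 bases, and the copy at 121 was the only one among the lysosomal genes that extended to the 10-letter CLEAR palindrome.

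Of the 41 genes, 38 had at least 1 window in the RefSeq table, and Asah1, Plbd2 and Npc1 had none. CACGTG, which reads the same on both strands, was present for 8 of the 38 genes (21.1%), against 8.09% of all 27025 genes of the table. Besides the 5 genes printed above, Arsa, Naglu and Sgsh held it. TCACGTGA, which contains CACGTG, was present for 3 of 38 (7.89%) against 1.12% of all genes, and the 10-letter palindrome for 1 of 38 (2.63%) against 0.37%. A match describes the letters and is not evidence of binding. Among the 8 genes with CACGTG, 6 were higher and 2 lower after clodronate, and their median log2 ratio was 0.15 against -0.02 for the genes without it. After the ratios were corrected for the GC content and length of the transcripts, 3 of the 8 were higher and 5 lower. The corrected medians were -0.07 and -0.08, so the direction of these genes as a group depended on that correction. Of the 3 genes with TCACGTGA, 1 was higher (Gla) and 2 lower (Mcoln1 and Cln3) as deposited. Their median log2 ratio was -0.18, against -0.003 for the genes without it.

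The lysosomal genes were among the more abundant transcripts of both libraries. All 41 averaged 5 RPKM or more over both libraries, and 21 averaged 50 RPKM or more. Among the 10982 genes that averaged 1 RPKM or more, called the genes kept, 39 of the 41 lay above the median, 17 in the top 10%, 12 in the top 5% and 4 in the top 1%. Their median level was 51.0 RPKM for vehicle and 51.9 for clodronate, against 11.1 and 11.3 for all genes kept. Together they summed to 9080 RPKM (1.51% of all RPKM) for vehicle and 9555 RPKM (1.60%) for clodronate. Psap, Cd68 and Lamp1 made up 49.3% and 52.5% of these sums, and without them the other genes summed to 4606 and 4534 RPKM.

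**Figure D1:**
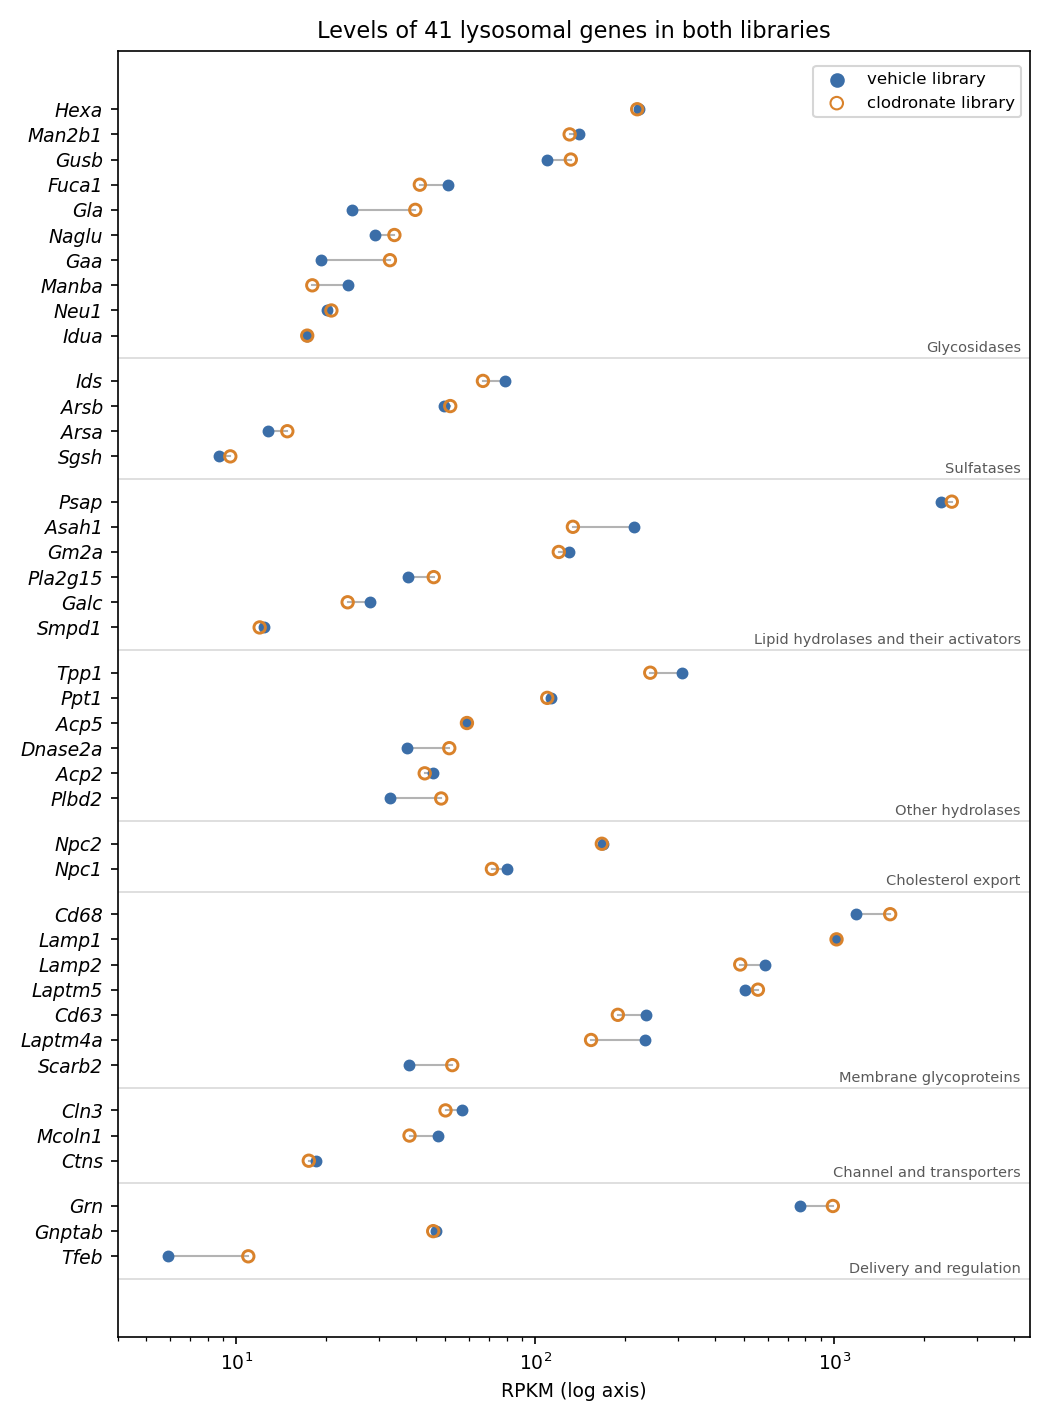
RPKM of the 41 lysosomal genes on a log axis, grouped by role, with the vehicle library as filled points and the clodronate library as open points, 1 value per library and no replicates. Psap, Cd68, Lamp1 and Grn stood highest and Tfeb and Sgsh lowest, and the points of most genes lay close together beside the range between genes.

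Most of the lysosomal genes differed little between the 2 libraries. The log2 ratio used throughout divides clodronate RPKM + 1 by vehicle RPKM + 1, and the added 1 shrinks the differences of low genes. A gene is counted as higher or lower from a 1.5-fold difference on this scale. Of the 41 genes, 3 were at least 1.5-fold higher in the clodronate library (7.32%), Tfeb, Gaa and Gla, and 2 at least 1.5-fold lower (4.88%), Asah1 and Laptm4a. Among all genes kept, 16.6% passed 1.5-fold upward and 16.3% downward. Among the 7957 genes averaging 5 RPKM or more, the level that all 41 reach, these shares were 13.5% and 13.2%. Of the 21 lysosomal genes averaging 50 RPKM or more, 0 were higher and 2 lower, against 8.24% and 11.5% of the 1615 genes at that level. All 41 genes lay within 2-fold, as did at least 91% of the 7957 genes and at least 92% of the 1615 genes.

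The median log2 ratio of the 41 genes was -0.015, against 0.02 for all genes kept, and their quartiles were -0.18 and 0.20 against -0.33 and 0.36 for genes of at least 5 RPKM. The median size of the ratio in either direction was 0.20, against 0.34 for genes of at least 5 RPKM and 0.29 for genes of at least 50 RPKM. Of the 41 genes, 29 (70.7%) lay within 1.25-fold of equality, against 47.4% of genes of at least 5 RPKM. From 50 RPKM upward the shares were 16 of 21 (76.2%) and 53.7%. By sign alone 19 genes were higher and 22 lower as deposited, but 11 were higher and 29 lower of the 40 genes that could be corrected for GC content and length, 9 of which changed sign.

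**Figure D2:**
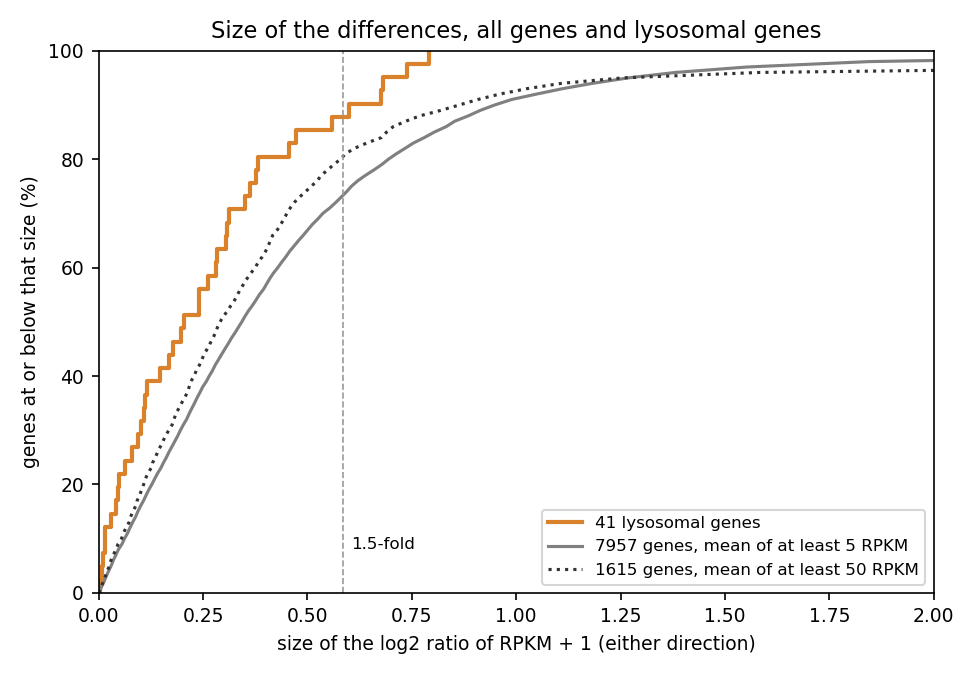
Share of genes in percent (vertical axis) whose log2 ratio between the libraries, in either direction, is at or below the size on the horizontal axis. The curve of the 41 lysosomal genes reaches 100% within 2-fold and runs to the left of the curves of the 7957 genes of at least 5 RPKM and the 1615 genes of at least 50 RPKM, with median sizes of 0.20, 0.34 and 0.29.

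The precision of single values was estimated from the steps between the lowest RPKM. If the lowest step of long transcripts is 1 read, the depth was about 13.1 M reads for vehicle and 10.6 M reads for clodronate, and the lysosomal genes had between 177 (Tfeb) and 76375 (Psap) reads in the vehicle library. The 95% Clopper-Pearson intervals of the ratio of RPKM below rest on these estimates and cover counting error only. They included equality for 12 of the 40 genes with a known transcript length and not for 28. Cd68 had no transcript length and has no interval.

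The ratios also moved with the base composition of the transcripts. Across the 40 lysosomal genes the GC content of the transcript ranged from 38.7% (Lamp2) to 63.2% (Tfeb), and its correlation with the log2 ratio was Pearson 0.52 and Spearman 0.53. Across 7889 genes of at least 5 RPKM these were 0.18 and 0.28, both given as a description of genes that share the same libraries. Among all genes kept, the median log2 ratio was -0.24 in the lowest of 10 bins of GC content and 0.30 in the highest. When these bin medians were subtracted, followed by those of 10 length bins, Gla alone of the 40 genes remained past 1.5-fold (1 higher and 0 lower), against 15.1% of all 10844 corrected genes that were higher and 14.9% that were lower. The part of base composition in the differences between conditions was not tested otherwise.

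**Figure D3:**
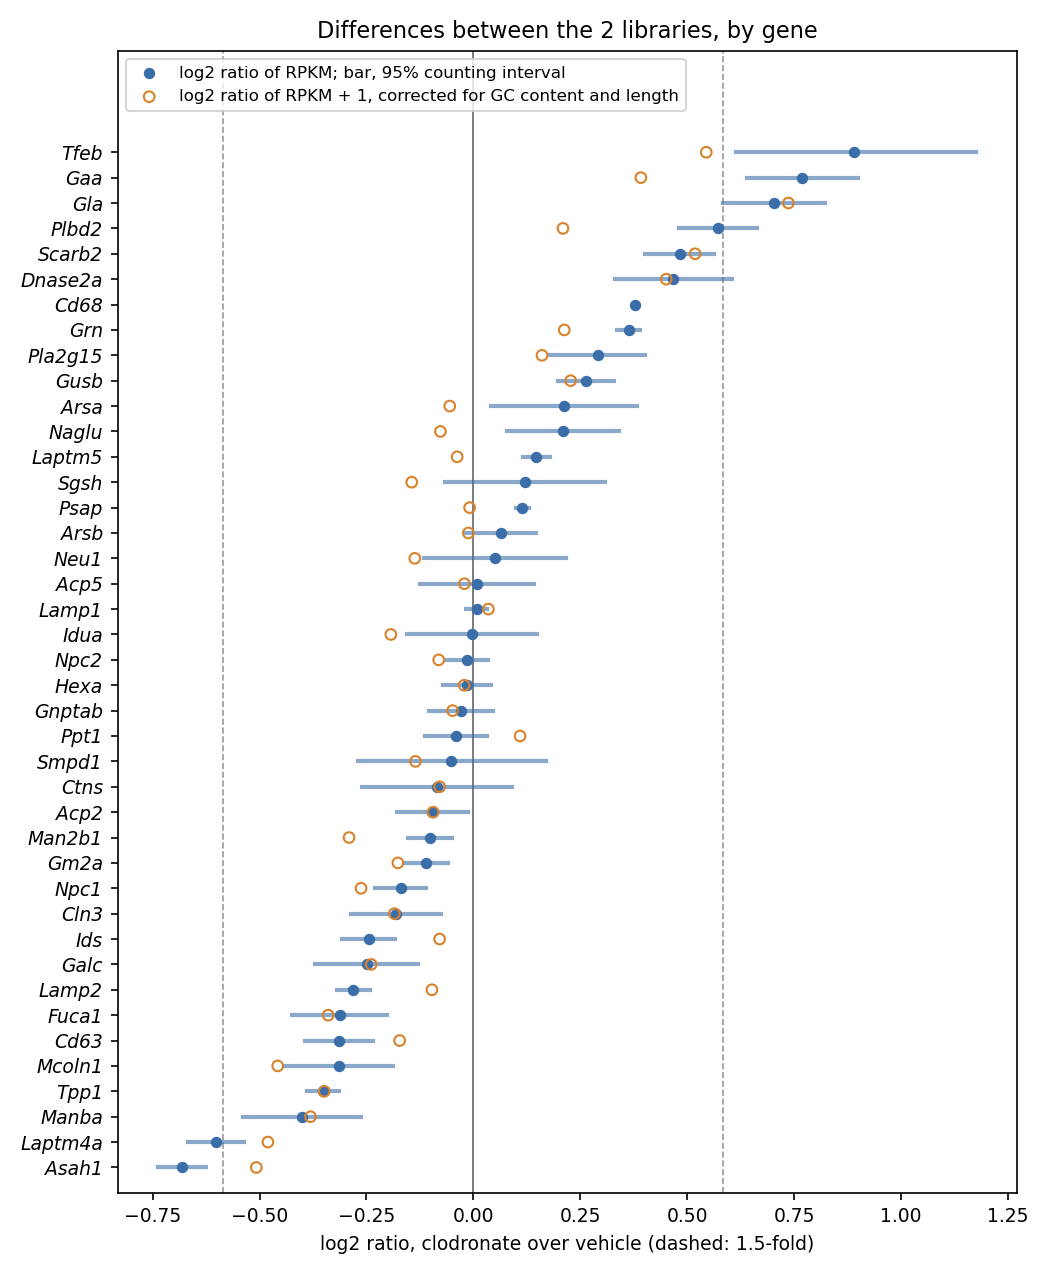
Log2 ratio of clodronate over vehicle for each lysosomal gene (horizontal axis), with filled points for the ratio of RPKM, bars for the 95% counting interval, open points for the GC- and length-corrected ratio of RPKM + 1, and dashed lines at 1.5-fold. Tfeb, Gaa and Gla lie at the upper end and Asah1 and Laptm4a at the lower end as deposited, and after the correction only Gla lies outside the dashed lines.

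Glycosidases remove sugars from glycoproteins, glycolipids and glycosaminoglycans. The 10 measured genes summed to 655 RPKM for vehicle and 683 for clodronate, with a median log2 ratio of 0.02 as deposited and -0.11 after the correction. Of the 10, 2 were at least 1.5-fold higher, Gaa and Gla, and 0 lower. Among all genes averaging 5 RPKM or more, 13.5% were higher and 13.2% lower, and so small a group cannot be set apart from these shares.

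Gaa, the acid alpha-glucosidase that degrades glycogen, was at 19.1 RPKM for vehicle and 32.6 for clodronate, a log2 ratio of 0.74 (1.67-fold). Its counting interval ran from 1.56-fold to 1.87-fold higher, and its ratio after the correction was 0.39, below the threshold. The transcript has 59.5% GC. In the mm9 coordinates of the files its locus spans chromosome 11 from 119129280 to 119147012. Gla, the alpha-galactosidase A that clears globotriaosylceramide, was at 24.3 RPKM for vehicle and 39.6 for clodronate, a log2 ratio of 0.68 (1.60-fold). Its counting interval ran from 1.499-fold to 1.77-fold higher, and at 46.3% GC its corrected ratio was 0.74. Its locus lies on chromosome X from 131122707 to 131135544. Gaa and Gla thus stood apart from each other after the correction, although they were alike as deposited.

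The most abundant glycosidase was Hexa, the alpha subunit of beta-hexosaminidase, with 221 RPKM for vehicle and 219 for clodronate. Man2b1, the acid alpha-mannosidase, was at 140 and 130 RPKM (log2 ratio -0.10). Gusb, beta-glucuronidase, was at 109 and 131 RPKM (0.26). These 3 abundant enzymes lay within 1.25-fold. Fuca1, which removes fucose, was at 51.0 RPKM for vehicle and 41.04 for clodronate (-0.31), and Manba, the beta-mannosidase, was at 23.7 and 17.9 (-0.38). Both were lower in the clodronate library with and without the correction. Among the enzymes of glycosaminoglycan breakdown, Naglu, the N-acetylglucosaminidase of heparan sulfate, was at 29.2 and 33.7 RPKM (0.20, and -0.08 after the correction). Idua, alpha-iduronidase, was at 17.3 and 17.2 RPKM. Neu1, the sialidase, was at 20.1 and 20.8 RPKM. The counting intervals of Hexa, Idua and Neu1 included equality. The Idua locus overlaps the span of Slc26a1, which was listed at 0 for vehicle and at 0.18 RPKM for clodronate.

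Sulfatases remove sulfate from glycosaminoglycans and sulfolipids. The 4 genes summed to 150 and 143 RPKM and none passed 1.5-fold. Ids, the iduronate sulfatase and the most abundant of them, was at 79.0 RPKM for vehicle and 66.7 for clodronate (log2 ratio -0.24). Arsb, which acts on dermatan sulfate, was at 49.6 and 51.9 RPKM. Arsa, which acts on sulfatide, was at 12.8 and 14.8 RPKM (0.20), and Sgsh, the sulfamidase of heparan sulfate, was at 8.77 and 9.53 (0.11). By sign 3 of the 4 were higher as deposited, and all 4 were lower after the correction, with a median of 0.09 and -0.07. The counting intervals of Arsb and Sgsh included equality.

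The lipid hydrolases degrade sphingolipids and phospholipids, some with the help of small activator proteins. The 6 genes summed to 2701 RPKM for vehicle and 2803 for clodronate, most of it Psap. Psap, which encodes the precursor of the saposins, was the most abundant lysosomal gene of the set, with 2280 and 2469 RPKM (log2 ratio 0.11, and -0.009 after the correction). It ranked 32 among all genes kept. Gm2a, the activator of ganglioside breakdown, was at 129 and 120 RPKM (-0.11).

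Asah1, the acid ceramidase, was the gene of the set with the lowest ratio. It was at 214 RPKM for vehicle and 133 for clodronate, a log2 ratio of -0.68 (1.60-fold lower). The counting interval of the ratio ran from 0.6002 to 0.648. At 43.5% GC its corrected ratio was -0.51, of the same direction and short of 1.5-fold. Its mm9 locus spans chromosome 8 from 42425996 to 42460051. Galc and Smpd1 were lower in level than Asah1 and nearer to equality. Galc, which removes galactose from galactosylceramide, was at 28.0 and 23.5 RPKM (-0.24), and Smpd1, the acid sphingomyelinase, was at 12.4 and 12.0, with a counting interval that included equality. Pla2g15, the lysosomal phospholipase A2, was at 37.3 and 45.7 RPKM (0.28).

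The other hydrolases summed to 595 RPKM for vehicle and 553 for clodronate. Tpp1, the tripeptidyl peptidase, was at 309 and 242 RPKM (log2 ratio -0.35, the same after the correction). Ppt1, which removes palmitate from proteins, was at 113 and 109 RPKM, and Acp5, the tartrate-resistant acid phosphatase of macrophages and osteoclasts, was at 58.6 and 59.0. The counting intervals of Ppt1 and Acp5 included equality. Acp2, the other acid phosphatase of the set, was at 45.5 and 42.6 RPKM, and its locus span is shared with Ddb2 (11.5 and 16.05 RPKM). Dnase2a, which digests the DNA of engulfed cells, was at 37.2 RPKM for vehicle and 51.5 for clodronate (0.46, and 0.45 after the correction). Plbd2, a phospholipase B-like protein, was at 32.5 and 48.4 RPKM (0.56). At 1.47-fold it was the gene just inside the threshold, and after the correction its ratio was 0.21. The Plbd2 locus shares its span with Sds, which was listed at 0 for vehicle and at 1.85 RPKM for clodronate.

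Npc2 and Npc1 pass cholesterol from the lumen to the membrane for export. Npc2 was at 168 RPKM for vehicle and 167 for clodronate, and its counting interval included equality. Npc1 was at 80.4 and 71.5 RPKM (log2 ratio -0.17), and its locus span is shared with 3110002H16Rik (25.7 and 33.0 RPKM). Neither gene passed 1.5-fold.

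The membrane proteins were the most abundant group, with 7 genes that summed to 3788 RPKM for vehicle and 3986 for clodronate. Their ratios ran in different directions. Cd68 (macrosialin), which is widely used as a macrophage marker, was at 1183 and 1536 RPKM (log2 ratio 0.38). Lamp1, a major glycoprotein of the lysosomal membrane, was at 1011 and 1016 RPKM, and its counting interval of 0.988 to 1.02 included equality. Lamp2, its close relative, was at 588 and 484 RPKM (-0.28), or -0.10 after the correction, at the lowest GC content of the set. Lamp1 and Lamp2 therefore differed from each other by more than their counting error as deposited. Cd63, a tetraspanin of late endosomes and lysosomes, was at 234 and 189 RPKM (-0.31).

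Laptm4a and Laptm5 are transmembrane proteins of late endosomes and lysosomes, and Laptm5 is restricted to blood cells. Laptm4a was at 233 RPKM for vehicle and 153 for clodronate, a log2 ratio of -0.60 (1.52-fold lower), just past the threshold. The counting interval of the ratio ran from 0.629 to 0.689, and the corrected ratio was -0.48. Its mm9 locus spans chromosome 12 from 8928112 to 8945547. Laptm5 was at 501 and 555 RPKM (0.15, and -0.04 after the correction). Scarb2 (LIMP-2), the membrane protein that carries glucocerebrosidase to the lysosome, was at 37.7 and 52.7 RPKM (0.47, and 0.52 after the correction). It was the least abundant of the 7 membrane proteins.

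The channel and both transporters were lower in the clodronate library, with and without the correction, and none passed 1.5-fold. Mcoln1, a calcium channel of the lysosome, was at 47.2 RPKM for vehicle and 37.9 for clodronate (log2 ratio -0.31, and -0.46 after the correction). Cln3, a membrane protein whose loss causes a lysosomal storage disease, was at 56.7 and 50.01 RPKM (-0.18). Ctns, the cystine exporter, was at 18.5 and 17.5 RPKM, and its counting interval included equality.

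The remaining genes act in delivery and regulation. Grn, the precursor of granulins and a lysosomal glycoprotein, was at 768 RPKM for vehicle and 988 for clodronate (log2 ratio 0.36, and 0.21 after the correction). Gnptab, the enzyme that starts the mannose 6-phosphate tag, was at 46.4 and 45.5 RPKM, and its counting interval included equality. Tfeb, the regulator described above, had the highest ratio of the 41 genes and the lowest mean level, although Sgsh was lower in the clodronate library. It was at 5.91 RPKM for vehicle and 11.0 for clodronate, a log2 ratio of 0.79 (1.73-fold). The estimate behind these values is 177 reads for vehicle and 268 for clodronate, and the counting interval of the RPKM ratio ran from 1.53-fold to 2.26-fold. Tfeb also had the highest GC content of the set, and its corrected ratio was 0.54, short of 1.5-fold. Its mm9 locus spans chromosome 17 from 47873985 to 47929365.

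Other genes of the same organelle were set beside these 41 in 6 lists with 84 genes, all of which were measured and kept. Of the 84, 5 were at least 1.5-fold higher in the clodronate library (5.95%) and 8 at least 1.5-fold lower (9.52%). The shares of all genes kept were 16.6% and 16.3%. They were 13.5% and 13.2% from 5 RPKM upward, and 8.24% and 11.5% from 50 RPKM upward. Median log2 ratios are given as a description, with no test of a list. In either direction the median size of the ratio was 0.40 for other lysosomal enzymes and 0.41 for cathepsins and legumain. It was 0.38 for mannose 6-phosphate and sortilin sorting, 0.24 for the V-ATPase and 0.24 for MiT/TFE factors and mTORC1. Other lysosomal membrane proteins had 0.16. Over all genes kept this size was 0.39, and it was 0.34 from 5 RPKM upward.

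Among 17 other lysosomal enzymes the median was -0.07, and it was -0.41 over the 8 that averaged 50 RPKM or more. Man2b2, an alpha-mannosidase, was higher, with 23.2 RPKM for vehicle and 37.5 for clodronate. Smpdl3a, a relative of the acid sphingomyelinase, was lower, with 201 and 114 RPKM. Among 17 subunits of the V-ATPase the median was -0.012 as deposited and 0.07 after the correction, and 0 were higher. Atp6v1g1 was lower with 99.8 and 55.0 RPKM, as was the accessory subunit Atp6ap2 with 92.3 and 54.8, while Atp6v0c, the most abundant subunit, was at 1289 and 1356. Among the 12 cathepsins and legumain the median was -0.049 as deposited, -0.12 after the correction and 0.13 over the 9 that averaged 50 RPKM or more. Ctss, a cysteine protease of antigen presentation, was lower with 2357 and 1420 RPKM, and Ctsh was lower with 231 and 150. Ctsb was at 2573 and 2811 RPKM and Ctsd at 1501 and 1406, both within 1.25-fold.

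Among 8 genes of mannose 6-phosphate and sortilin sorting the median was 0.31 as deposited and 0.10 after the correction. Nagpa, which uncovers the mannose 6-phosphate tag, was higher with 18.0 RPKM for vehicle and 36.2 for clodronate, and M6pr, a receptor of the tag, was at 140 and 186. Among 14 genes of the MiT/TFE factors and of mTORC1 on the lysosome the median was 0.07. Flcn, a regulator of this branch, was higher with 23.1 and 40.0 RPKM, and so was Rraga, a GTPase that recruits mTORC1, with 18.0 and 30.2. Slc38a9, an arginine sensor, was lower with 7.81 and 3.67 RPKM, and so was Lamtor5 with 71.2 and 45.1. Among 16 other lysosomal membrane proteins the median was -0.002 as deposited and -0.15 after the correction. Ostm1, the partner of a chloride transporter, was higher with 13.0 and 22.2 RPKM, and Slc11a1, the metal transporter of phagosomes, was at 167 and 153.

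**Figure D4:**
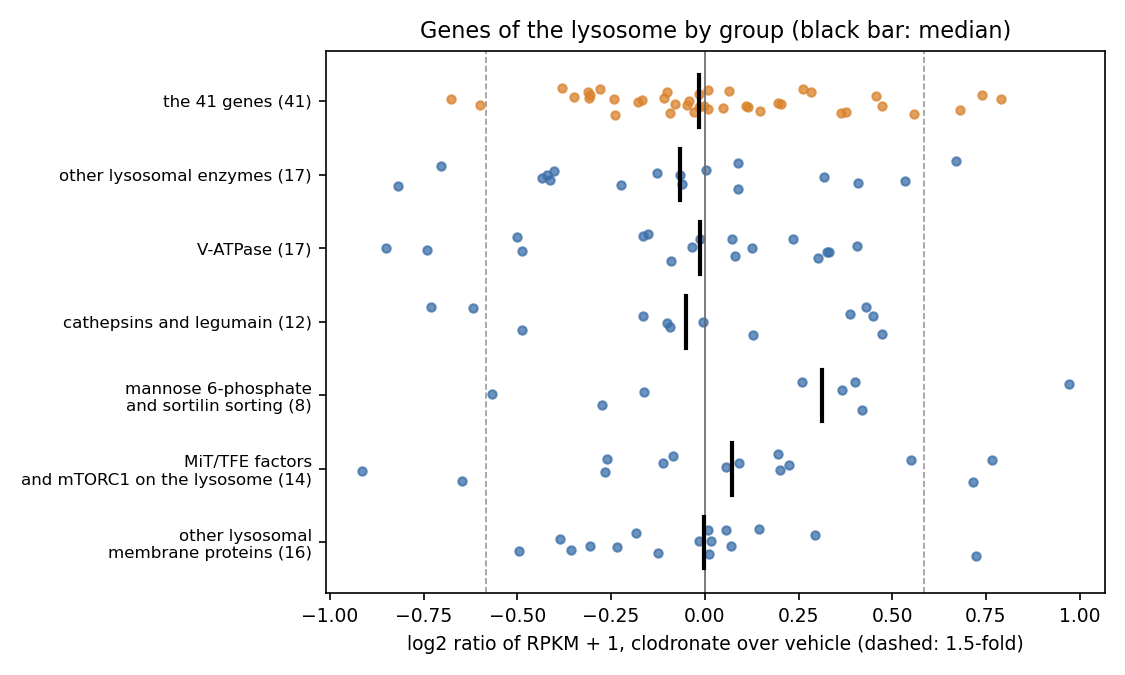
Log2 ratio of RPKM + 1, clodronate over vehicle, of the 41 lysosomal genes and of 6 other lists of the organelle, with 1 point per gene, the number of genes in parentheses, a black bar at the median and dashed lines at 1.5-fold. As deposited, the medians lie between -0.07 and 0.07 except for mannose 6-phosphate and sortilin sorting, at 0.31 over 8 genes. Median sizes in either direction ranged from 0.16 to 0.41 between the 6 lists.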

How the data were processed

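RPKM values were deposited by the authors for 23170 loci in each of 2 libraries, 1 per condition. The submitters' processing notes name CASAVA 1.8.2, TopHat2 2.0.9, Bowtie 0.12.9, Cufflinks 2.2.1, Cuffdiff and build mm9. The paper given with the series describes another experiment. Numeric symbols in 26 loci were replaced by their accession, and lines of 1 symbol were summed. Genes averaging 1 RPKM or more were kept, and log2 ratios used a pseudocount of 1. Without counts, no count model applied. The genes and lists were chosen with earlier results of these data known. From each other list, genes past 1.5-fold and those among the 3 highest could be named. The values of 1 such gene are not reported here.

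Read totals are not given in the files. The lowest RPKM of loci with transcripts of at least 3000 nt, taken as 1 read, gave the approximate depth. Read numbers used the shortest transcript of the gene (GENCODE M21), while GC content and length came from the longest. Transcripts were found for 98.7% of the genes kept. Alternatives were a pseudocount of 0.1, no filter, at least 5 RPKM, centring, upper-quartile scaling, the highest line of a repeated symbol, the correction for GC content and length in 10 bins each, and thresholds of 2-fold and 3-fold. A mean of at least 50 RPKM, leaving out genes that share a locus span and the counting interval were chosen after seeing the data. Coordinates of mm9 and GRCm38.p6 were kept apart. Gene counts past a threshold were tested on simulated data. Python 3.11.15, numpy 2.4.6, pandas 2.3.3, scipy 1.17.1 and matplotlib 3.10.9 were used.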

Additional observations from a re-analysis of the deposited data

How the results depend on the processing

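Counts of 3 genes at least 1.5-fold higher and 2 lower, and the median log2 ratio of -0.015, were compared across the alternatives. The correction for GC content and transcript length gave 1 higher (Gla), 0 lower and a median of -0.079 over 40 genes, against 15.1% higher and 14.9% lower of all genes under the same correction, and it left Tfeb, Gaa, Asah1 and Laptm4a short of 1.5-fold. Genes of at least 50 RPKM gave 0 higher and 2 lower, since the 3 higher genes lie under that level. Thresholds of 2-fold and of 3-fold each gave 0 higher and 0 lower. Of all genes averaging 5 RPKM or more, at least 91% also lay within 2-fold and at least 97% within 3-fold. The other alternatives gave 3 and 2. The median of the lysosomal genes was -0.034 after centring, -0.061 after upper-quartile scaling and -0.041 from 50 RPKM upward. Apart from these and the correction, it was -0.015. The median of all genes stayed between -0.02 and 0.03. No paired analysis was possible because the vehicle and clodronate groups hold 1 library each.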
